A study of Ovis aries with 9 samples.

Results

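The genes raised by both compounds are 124 of the 25962 genes counted in primary rumen epithelial (RE) cells. They were chosen from the values themselves. A gene was taken when its mean CPM (counts scaled to the library total) was 1 or more in any group, when the log2 ratio of mean CPM + 0.1 to Con was 0.5 or more in both GA and VP, and when every GA and every VP library lay above every Con library. A log2 ratio of 0.5 is a 1.41-fold rise. The RE cells were wild-type sheep cells isolated earlier from newborn Hu lambs, and the labels and methods used here do not say how many lambs. They were cultured with low serum and an additive mix that contained epidermal growth factor, insulin and cholera toxin, in all 3 groups. GA stands for 3 wells that received GA-017 at 10 μM, VP for 3 wells that received verteporfin at 5 μM, both over 24 h, and Con for 3 untreated wells. Both compounds were diluted in DMSO while Con is labelled as untreated, so a response to the compounds and a response to their vehicle cannot be told apart for genes that moved the same way in GA and VP.

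YAP1 and TAZ are transcriptional co-activators at the end of the Hippo pathway. When the Hippo kinases phosphorylate them they are held in the cytoplasm, and when they are not phosphorylated they enter the nucleus, bind TEAD proteins and drive genes of growth and adhesion. In stratified squamous epithelia, the kind that lines the rumen, they are best known in the proliferating basal layer. GA-017 is used to activate them, and verteporfin, a porphyrin dye known from photodynamic therapy, is used to disrupt their work with TEAD. Genes that rise with both compounds therefore moved the same way under agents that were chosen for opposite actions.

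Counts per library summed to between 14458606 and 15814380, and 3 counts, the least that were read as a level, equal between 0.190 and 0.207 CPM. The wells of a group differed by more than sampling noise, their chi-square per degree of freedom lying at 2.87 to 14.1, and each library was kept as a separate sample. The 3 libraries of a group are wells, and their spread holds no difference between animals. The table gives Ensembl identifiers, and 0 of them could be paired with a gene symbol, so that the roles of the members, the Hippo and Wnt genes and the markers that would check the cell type are not analysed here. In bulk RNA, a larger number of cells of one type and more RNA per cell cannot be told apart.

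In total, 11709 genes had a mean of 1 CPM or more in a group. Among them, 936 passed the GA part of the rule and 617 passed the VP part. Both parts were passed by the 124 members, which are 1.06% of these genes, and the mirror of the rule, with both groups lower than Con, was passed by 607 genes or 5.18%. With TMM library sizes, a scaling chosen for the mirror after seeing the data, these numbers were 202 and 493. Every GA library lay above every Con library in 21% of the 11709 genes, and every VP library did so in 25.1%. A further 67 genes had both ratios at or above the minimum but overlapping libraries. Many more genes had no overlap and a smaller rise, with 654 genes short of the minimum in both treatments, 194 short in VP alone and 94 short in GA alone. The same 3 Con libraries enter both ratios, so a gene that was low in Con by chance would seem raised in both.

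**Figure D1:**
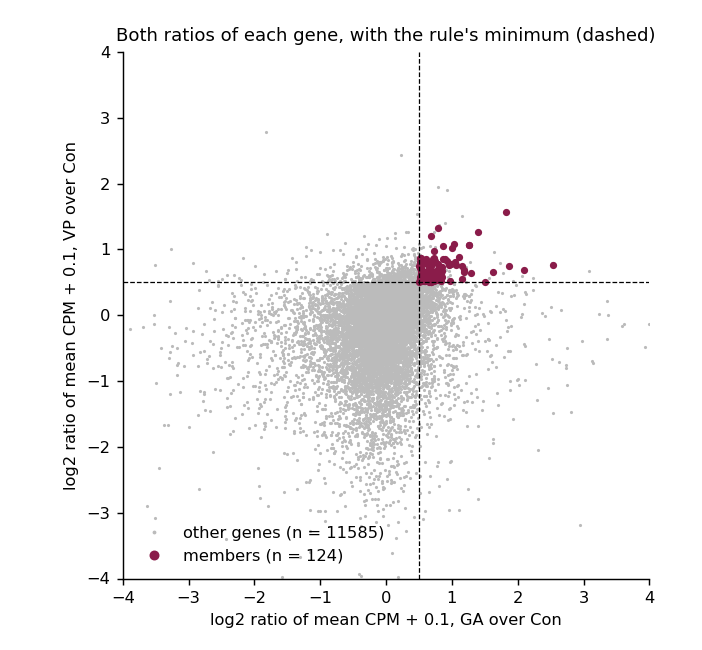
Each point is one gene with a mean of 1 CPM or more in a group, with its log2 ratio of GA to Con on the x axis and of VP to Con on the y axis. The 124 members fill the corner just above 0.5 on both axes and thin out quickly beyond 1, and a few of them stretch along the GA axis to 2.54 (28 genes lie outside the axes).

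The rises were modest. The log2 ratio to Con had a median of 0.69 in GA, with quartiles at 0.59 and 0.82, and a median of 0.64 in VP, with quartiles at 0.56 and 0.77. The highest ratio was 2.54 in GA and 1.56 in VP. In 102 of the 124 members both ratios stayed under 1, and in 72 the smaller of the ratios was under 0.6. Over all 11709 genes the medians were -0.03 in GA and -0.09 in VP. These values chose the members and describe them. Together the members held 0.476% ± 0.0302 of a Con library, 0.756% ± 0.0986 of a GA library and 0.740% ± 0.0338 of a VP library (SD over 3 wells), which is 1.59 times the Con share in GA and 1.55 times in VP. Next to the threshold for GA, the 3 members just inside had log2 ratios of 0.5005, 0.5008 and 0.5093, and the 3 genes just outside had 0.4962, 0.4945 and 0.4911. Next to that for VP, the ratios just inside were 0.5004, 0.5019 and 0.5024, and those just outside were 0.4987, 0.4980 and 0.4972. The values ran on across the boundary of the list without a break.

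Of the 124 members, 123 passed the filter of the test, which asked for 1 CPM in each library of a group. The remaining member was counted 3, 8 and 10 times in the Con wells, 17, 16 and 14 times in the GA wells and 12, 16 and 12 times in the VP wells. It is among the least counted members, and its Con and treated counts lie only a few reads apart. By edgeR, with quasi-likelihood fits and FDR adjusted over 11403 genes, 113 of the 123 members were higher in GA than in Con at FDR < 0.05, beside 17.2% of all genes tested. In the same test of VP against Con 116 members were higher, beside 24.1% of all genes. With a change of more than 2-fold added, 20 members were upregulated in GA (2.03% of all genes) and 10 in VP (0.324% of all genes). Of the members, 6 were upregulated in both, a count for which no share of all genes was computed. The rule used both contrasts, so these counts only restate the choice of members.

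The members spanned a wide range of levels. Their mean over all libraries ran from 0.788 to 652 CPM with a median of 22.3 CPM, and the median of all genes tested was 22.9 CPM. Of the members, 9 had a mean under 2 CPM, 32 lay between 2 and 10 CPM, 66 between 10 and 100 CPM, and 17 at 100 CPM or more. CPM is not per length, so it gives the precision of a member and no order of abundance between genes. The 17 members with the most counts had 1027 to 13313 counts in a library and median log2 ratios of 0.66 in GA and 0.58 in VP. The 9 members with the fewest had 3 to 56 counts in a library and median ratios of 0.98 in GA and 1.02 in VP, but 7 of these 9 had a Con mean under 1 CPM and entered only through a treated group, so the size of their ratios is partly set by the rule. All 83 members with a mean of 10 CPM or more passed FDR < 0.05 in both comparisons with Con. Among the 9 members with the fewest counts, 8 were tested, and 4 passed in GA and 6 in VP. Over all levels together, 17.2% of all genes tested were higher in GA and 24.1% in VP. No share of all genes was computed within a level. The rule used both comparisons, so the counts at each level describe the chosen members only.

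The 5 members with log2 ratios of 1 or more in both groups were all thinly counted. All but the most counted of them had a Con mean under 1 CPM and entered only through a treated group. The size of their ratios is therefore partly set by the rule. The largest joint rise belonged to a gene counted 14, 16 and 11 times in the Con wells, 50, 54 and 54 times in the GA wells and 52, 31 and 49 times in the VP wells. Its wells treated with either compound stood far above Con, and VP replicate 2 was the lowest of them. The gene next in rank was counted 8, 6 and 6 times in the Con wells, 13, 17 and 31 times in the GA wells and 20, 18 and 17 times in the VP wells. The lowest GA library of that gene stood only 5 counts above the highest Con library. The most counted of the 5 had 4.43, 4.23 and 2.77 CPM in Con, 6.83, 8.30 and 8.60 CPM in GA, and 9.09, 6.80 and 8.66 CPM in VP. Its GA and VP wells covered the same range and both stood clear of Con.

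The member ranked 7 by its smaller ratio had 29.5, 29.2 and 29.6 CPM in Con, 54.3, 65.1 and 70.7 CPM in GA, and 56.6, 57.3 and 49.6 CPM in VP. Con was nearly constant over its wells, and all treated wells were clear of it. One of the most counted members had 481, 483 and 459 CPM in Con, 704, 762 and 789 CPM in GA, and 744, 754 and 688 CPM in VP. Its GA and VP wells again interleaved, and the difference of GA minus VP was -0.01 on the log2 scale, with a 95% interval from -0.16 to 0.14. Another had 182, 172 and 153 CPM in Con, 263, 291 and 297 CPM in GA, and 271, 278 and 251 CPM in VP, with a difference of 0.03 and an interval from -0.15 to 0.21.

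**Figure D2:**
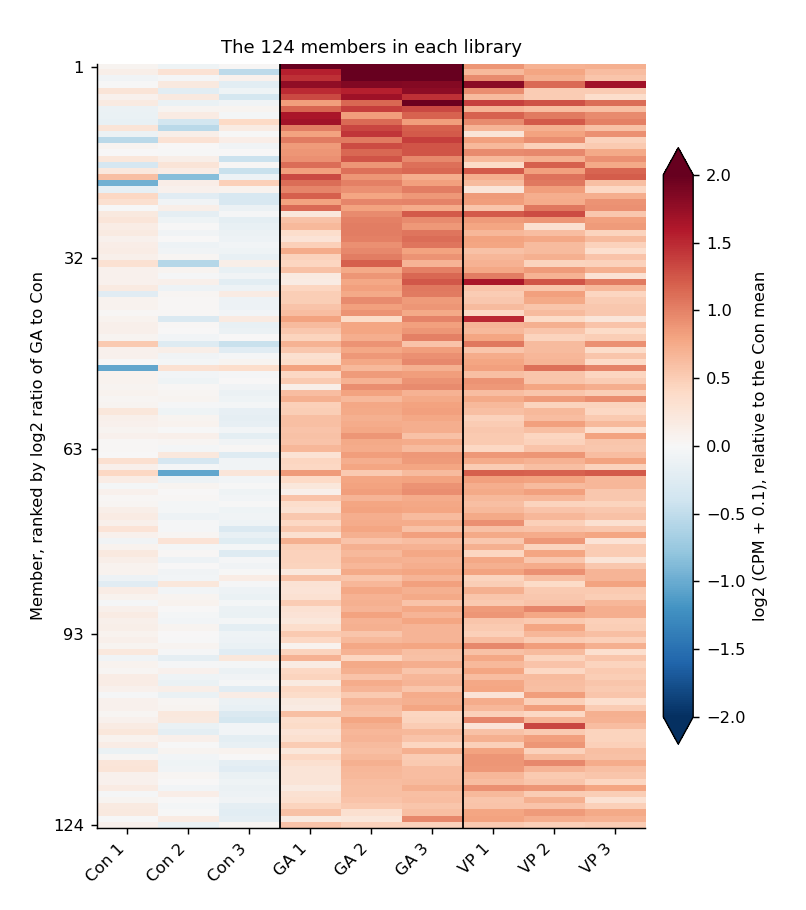
Rows are the 124 members, ranked by their log2 ratio of GA to Con, columns are the 9 libraries, and the colour is log2 (CPM + 0.1) relative to the Con mean of the gene, with values past 2 drawn at the end of the scale. The rise is even over most rows in both treatments, and several of the first rows, but not all, are far higher in GA than in VP. GA replicate 1 is paler than GA replicates 2 and 3 over most rows.

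Whether the compounds raised a member by the same amount was asked by testing GA directly against VP. This contrast holds no Con library, but the rule bears on it. A gene that must rise in both groups over the same Con mean has less room for a difference between them. In the edgeR fit of all 9 libraries, 54.6% of the 11403 genes differed between GA and VP at FDR < 0.05, with 28% higher in GA and 26.6% higher in VP. Of the 123 members, 10 or 8.13% differed, with 7 higher in GA and 3 higher in VP, and 17 had an unadjusted p under 0.05, beside 59.3% of all genes. These numbers moved with the libraries and the model, to 19 higher in GA and 1 in VP without GA replicate 1, and to 43 and 1 with read GC percentage as a covariate. A difference of more than 2-fold was called for 3 members higher in GA, beside 10.3% of all genes, and for 0 higher in VP, beside 5.2%. Among the genes lowered in both groups, chosen by the mirror of the rule, 45% of 589 differed, but they were not matched to the members in size of change. Of the genes that passed only the GA part of the rule, 81.7% of 793 differed. For those that passed only the VP part it was 76.4% of 479. How much of the low share among the members comes from the rule was not tested. All GA libraries lay above all VP libraries in 14 members, beside 32.9% of all genes, and all VP libraries lay above all GA libraries in 6, beside 26.5%. The libraries overlapped in the other 103. Doses of the compounds were not the same, so a difference of size is one between these exposures.

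For 113 members the difference missed the threshold, which does not show that it was 0. In 86 of them the 95% interval lay within 1.5-fold in either direction, and so a larger difference is outside the interval. These are 69.9% of the 123 members tested, beside 39.7% of all genes. The rule leaves the members less room for such a difference. The interval lay within 2-fold for 115 of the 123 members, beside 69.1% of all genes. In 3 of the 113 the interval reached past 2-fold, and those had means between 0.894 and 4.84 CPM. The median of GA minus VP over the members was -0.01 on the log2 scale, and it was -0.01 over all genes. The rule ratio was larger in GA for 77 members and in VP for 47, on CPM without further scaling. Without TMM scaling the median of GA minus VP was 0.05 over the members and 0.05 over all genes, so the members' side of 0 changed with the scaling. With the replicate number as a block, 8 members were higher in GA and 2 in VP. In that fit 53.5% of all genes were called, and 27.7% of all genes were called higher in GA.

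**Figure D3:**
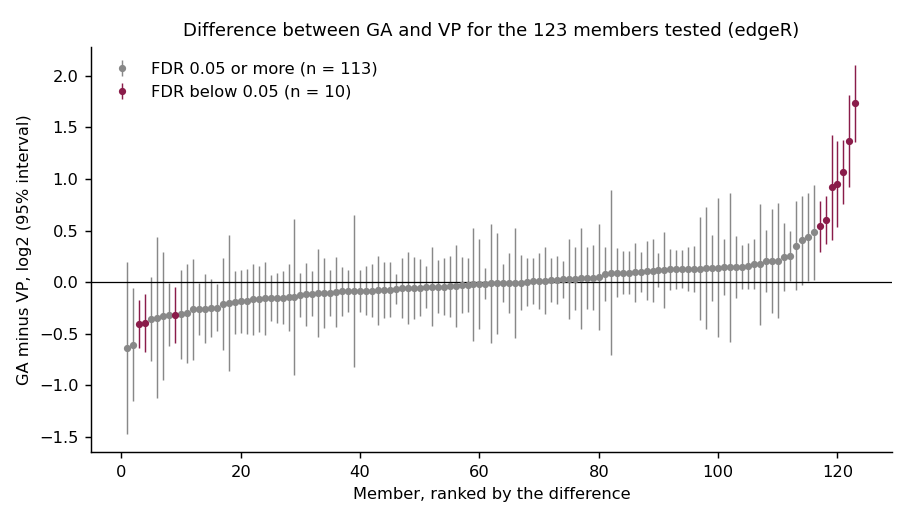
Points are the 123 members tested, ranked by the difference GA minus VP on the log2 scale from the edgeR fit, and bars are 95% intervals. The line of points runs close to 0 over most of its length and turns up steeply at the right end, where 7 members are higher in GA. The 3 members higher in VP lie toward the left among members with wider intervals that missed the threshold.

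The members that were higher in GA differed by 0.54 to 1.73 on the log2 scale. ENSOARG00020011343 had 3.60, 3.26 and 3.53 CPM in Con, 15.9, 22.6 and 23.4 CPM in GA, and 6.49, 5.65 and 5.75 CPM in VP. Every GA library was more than double every VP library, and the VP libraries stood clear of Con. The difference was 1.73 on the log2 scale (SE 0.18, edgeR FDR = 2.05e-07). ENSOARG00020003332 had 6.29, 7.10 and 4.01 CPM in Con, 17.2, 30.0 and 28.5 CPM in GA, and 9.16, 10.1 and 8.92 CPM in VP. The groups again formed steps without overlap from Con to VP to GA, and GA minus VP was 1.37 (SE 0.21, edgeR FDR = 2.93e-05). The next member in size had a difference of 1.07. In each of the 7, all GA libraries lay above all VP libraries, and the log2 ratios to Con were between 1.15 and 2.54 in GA and between 0.50 and 0.77 in VP. Their GA ratios were thus all above the upper quartile of the members, and their VP ratios were not.

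The 3 members higher in VP differed less, by 0.31 to 0.41. ENSOARG00020009956, one of the most counted members, had 513, 442 and 425 CPM in Con, 523, 699 and 752 CPM in GA, and 864, 852 and 794 CPM in VP. The VP libraries were all above the GA libraries, and GA replicate 1 was barely above the highest Con library. GA minus VP was -0.41 (SE 0.11, FDR = 0.00489 from the same edgeR test). ENSOARG00020010108 had 22.9, 18.2 and 17.2 CPM in Con, 24.3, 31.7 and 27.9 CPM in GA, and 35.8, 38.0 and 32.4 CPM in VP. The VP libraries were again the highest, and GA replicate 1, at 24.3 CPM, lay little above the highest Con library at 22.9 CPM. GA minus VP was -0.40 (SE 0.13, FDR = 0.0173 from the same edgeR test). This call was lost without GA replicate 1 (FDR = 0.0691 from edgeR), VP replicate 1 (FDR = 0.0587 from edgeR) or VP replicate 2 (FDR = 0.0933 from edgeR). In the third, the lowest VP library had 31.9 CPM and the highest GA library 32.9 CPM, so that they overlapped, and GA minus VP was -0.31 (SE 0.13, FDR = 0.0481 from the same edgeR test).

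**Figure D4:**
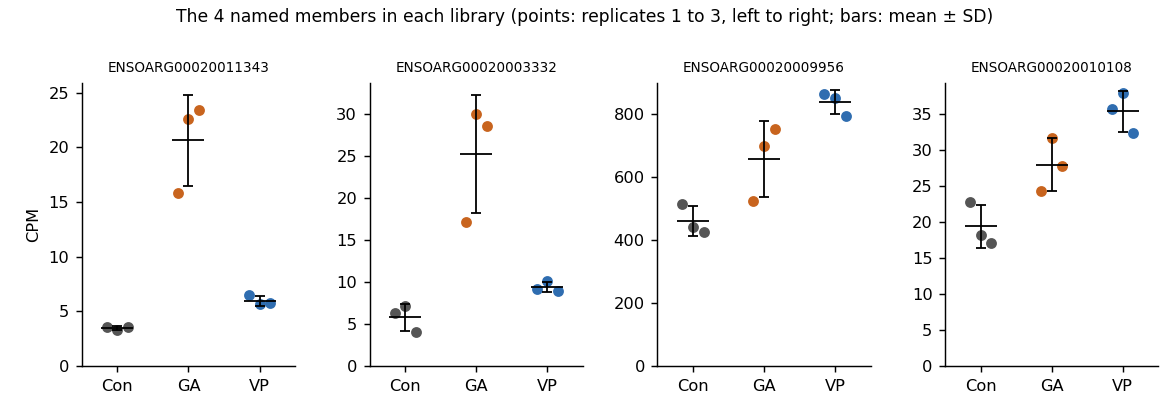
CPM of the 4 named members in each library, by group, with points for replicates 1 to 3 from left to right and bars for the mean and SD of 3 wells. In the left pair GA stands far above VP, in the right pair VP stands above GA, and in all 4 the lowest GA point is replicate 1.

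The rule fixes the order of the groups but not the order of the wells within a group, and there the members had much in common. GA replicate 1 was the lowest GA library in 102 of the 124 members, or 82.3%, where 36.2% of all genes tested had their lowest GA level in that well. Con replicate 3 was the lowest Con library in 76 members (61.3%, beside 34.9% of all genes) and VP replicate 3 the lowest VP library in 77 (62.1%, beside 32%). Con replicate 1 was the highest Con library in 82 members, or 66.1%, beside 31.4% of all genes. The members' median log2 level relative to the Con mean was 0.48 in GA replicate 1, 0.77 in GA replicate 2 and 0.78 in GA replicate 3. In VP it was 0.69, 0.67 and 0.55 in replicates 1 to 3, and in Con 0.08, 0.00 and -0.08. The gap between GA replicate 1 and the mean of the other GA wells was over 0.5 in 25 members, or 20.2%, beside 5.57% of all genes. In 22 members GA replicate 1 was no more than 10% above the highest Con library, and this was so for 2 members in each of the other GA wells. In 59 members GA replicate 1 was the lowest of all 6 treated libraries, and in 28 it was VP replicate 3. For these counts and the 22 before them no share of all genes was computed, so they are not read as a trait of the members.

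**Figure D5:**
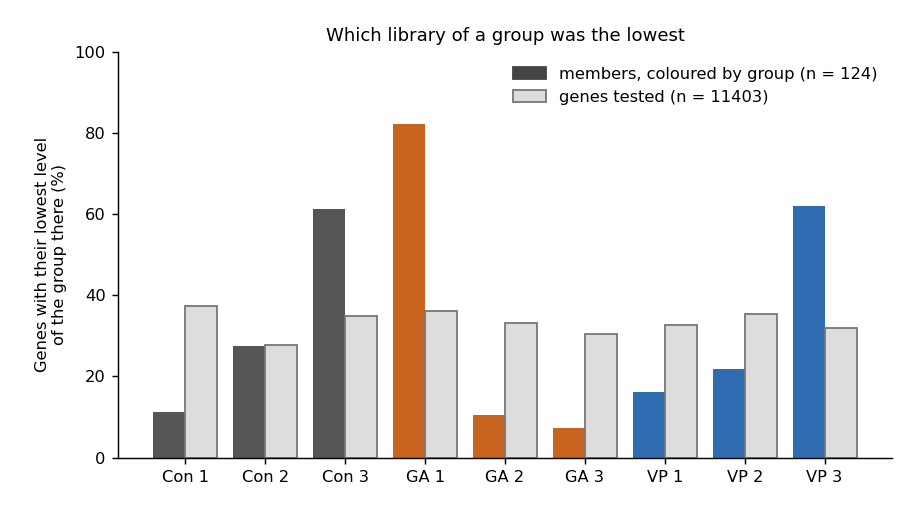
Bars give the percentage of genes that had their lowest level of the group in each library, in dark grey (Con), orange (GA) and blue (VP) for the 124 members and in outlined light grey for the 11403 genes tested. The outlined bars are close to even, and those of the members peak at Con replicate 3 (61.3%), GA replicate 1 (82.3%) and VP replicate 3 (62.1%).

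Among the 83 members with a mean of 10 CPM or more, the coefficient of variation had a median of 7.68% in Con, 14.0% in GA and 7.48% in VP. All 7990 genes tested at that level had medians of 6.89%, 8.43% and 6.87%. The distance from other genes was widest in GA. The list itself changed when the same well was left out. With any library left out, the no-overlap part of the rule is easier to meet by construction. Without GA replicate 1, 192 genes met the rule, of which 121 were members with all libraries, and 19 members were higher in GA than in VP in place of 7, beside 26.3% of all genes in the same fit. Without Con replicate 1, the highest Con library of most members, 188 genes met the rule and 116 members were among them.

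The GC percentage of the reads, which the study's sequencing table gives for each library, moved in part with this order. The library with the lowest GC percentage was Con replicate 3, GA replicate 1 and VP replicate 3, the same wells in which most members were lowest. In 48 members, or 38.7%, the lowest library was that one in all 3 groups, beside 12.4% of all genes. The full order of the wells by GC percentage was less common. It held in 44.4% of members in Con, 46.8% in GA and 35.5% in VP, beside 19.6%, 19.9% and 17.4% of all genes. In all 3 groups it held in 12 members, or 9.68%, beside 2.86%. When the GC percentage was a covariate of the 9-library fit, a setting that for the comparisons with Con was chosen after seeing the data, the members' median log2 difference from Con went from 0.72 to 0.64 in GA and from 0.73 to 0.47 in VP. In that fit 116 of the 123 members were higher than Con in GA at FDR < 0.05, beside 23.4% of all genes. In VP 86 were higher, beside 19.1%. The 9-library fit without the covariate gave 115 in GA, beside 18.5%, and 121 in VP, beside 26.3%. With the covariate the log2 difference from Con was positive for all 123 in both. The number of members higher in GA than in VP went from 7 to 43 with the covariate, and the number higher in VP from 3 to 1, by edgeR at FDR < 0.05. In that fit 52.3% of all genes were called, and 27.1% of all genes were called higher in GA. The median of GA minus VP over the members was then 0.18, where that of all genes was 0.00. GC percentage and group are partly confounded, since VP replicates 1 and 2 had the highest of all 9 libraries, so a part of the rise in VP cannot be told apart from it.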

How the data were processed

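RNA of 9 wells was sequenced. The authors used CASAVA 1.8 for read filtering and HISAT2 for mapping, with Oar_rambouillet_v1.0 as reference. The deposited values are raw counts for each Ensembl gene and library, not normalized. The counting tool and annotation are not given in the sources used here. Libraries were assigned to groups by their titles.

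CPM were computed on column totals, with 0.1 CPM added for ratios. The members, the lists and the settings were chosen with earlier results of these data known. Genes were tested where all libraries of any group reached 1 CPM (11403 genes). The tests were edgeR 4.0.16 (R 4.3.3) quasi-likelihood fits with TMM and Benjamini-Hochberg adjustment, GA against VP with all 9 libraries, and each treatment against Con with 6. SE is the size of the log2 difference over the root of F. Scripts were tested on simulated data. DESeq2 1.42.0, limma-voom (limma 3.58.1), other scalings, filters and covariates were alternatives.

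Without symbols, identifiers are printed only for 2 members on each side of GA against VP, those with the largest difference among members at FDR < 0.05 whose GA and VP libraries did not overlap. Other members were picked by rank or count after their values were seen. For Con and VP, deviations of wells that share a number were correlated (r = 0.16, 0.111 and 0.374, all over 0.1), and those of GA did not with either group. The pairing comes only from the titles. The block changed the count of members higher in VP than in Con from 116 to 119, beside 24.1% and 29.2% of all genes. A p-value here sets a difference between groups against the spread between wells. In GA against VP, the Con wells also enter the estimate of that spread.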

Additional observations from a re-analysis of the deposited data

How the results depend on the processing

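The number of genes that met the rule, 124, was 97 with a pseudocount of 1 CPM, and 130, 118 and 139 with a minimum of 0.5 CPM, of 2 CPM and without one. It was 202 with TMM and 203 with RLE effective library sizes, each with 123 of the members, 238 at a minimum log2 ratio of 0.4 and 5 at a minimum of 1. Leaving out each library gave between 109 and 192 (86 to 121 of the members).

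Members higher in GA than in VP numbered 7, and the same 7 were called under every setting of FDR < 0.05 that was run. They were 3 with a change of more than 2-fold, 43 with read GC percentage as a covariate, and 7 to 19 with 1 library left out. The 3 higher in VP were 5 with limma-voom, 6 without a filter on low counts, 1 with the GC covariate, 0 with a change of more than 2-fold, and 1 to 7 with 1 library left out, so this number is not stable. With the replicate number as a block they were 8 and 2. DESeq2 gave 7 and 3. Of all genes, 54.6% were called in either direction as reported, 54.5% with DESeq2, 54.9% with limma-voom and 53.5% with the block. The share was 40.8% without the filter, 52.3% with the GC covariate and 47.2% to 55.1% with 1 library left out.

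Against Con, 113 members in GA and 116 in VP passed, and with more than a 2-fold change 20 and 10. Left-out libraries gave 98 to 113 in GA, beside 12.3% to 20.8% of all genes. In VP they gave 104 to 118, beside 19.6% to 26.4%. The replicate block gave 106 in GA, beside 13.7% of all genes, and 119 in VP, beside 29.2%. ENSOARG00020010108 lost its call with the GC covariate (GA minus VP -0.16, FDR = 0.242 by edgeR). For the moved numbers the cause was not tested. By construction, a stricter threshold leaves fewer genes, and a left-out library eases the no-overlap part of the rule. Levels at or below 3 counts have no order.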
